A study of Mus musculus with 23 samples.

Results

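Histone acetyltransferases were described by the capture of methylated DNA around the starts of their genes in mouse heart and spleen. The group held 10 genes, taken by symbol from the deposited tables: Crebbp, Ep300, Kat2a, Kat2b, Kat5, Kat6a, Kat6b, Kat7, Kat8 and Hat1. Each had 1 row among the 41388 gene-start windows of either table, and all 10 passed the filter on low counts in every comparison. Genomic DNA of the left ventricle and of the spleen was fragmented, and pieces carrying methylated CpG sites were pulled out with MethylMiner, a kit built on a methyl-CpG binding protein, and sequenced. All animals were male C57Bl/6 mice, each kept in a cage of its own. High fibre mice ate a diet rich in resistant starch (heart n = 4, spleen n = 4). Acetate mice received 100 mM magnesium acetate in the drinking water (heart n = 3, spleen n = 4). Control mice ate a diet lacking resistant starch (heart n = 4, spleen n = 4). Feeding started 3 weeks before an operation to place minipumps and went on to the end of the study. What the pumps delivered, the animals' age and the food of the acetate mice are not given in the sources used here. Whether each library of a group stands for another mouse is not given in the labels, and the p-values speak only of the variation among the libraries.

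Histone acetyltransferases move an acetyl group from acetyl-CoA to lysines of histone tails, which loosens chromatin and creates docking sites for bromodomain proteins. Crebbp and Ep300 are paralogous co-activators recruited by many transcription factors to enhancers and promoters. Kat2a (GCN5) and Kat2b (PCAF) are the alternative catalytic subunits of the SAGA and ATAC complexes, and Hat1 acetylates newly made histone H4 before it is laid down. Kat5 (TIP60), Kat6a (MOZ), Kat6b (MORF), Kat7 (HBO1) and Kat8 (MOF) form the MYST family and work inside multi-subunit complexes, some of whose subunits are shared. Methylation of CpG-rich gene starts is commonly linked to silent genes. The counts used here give captured DNA and not transcripts, and no unenriched input library was used, so they show no absolute methylation level.

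RefSeq promoters of build GRCm38.p6, reaching from 250 bases before to 50 bases after a start, were found for 9 of the 10 genes. The number of CpG sites in those 300 bases ranged from 5 at the second start of Kat8 to 49 at Crebbp, against a median of 7 over the first promoters of 27025 genes in the same table. Ep300 had 30, Hat1 32, Kat6b 32 and 34 at its pair of starts, Kat5 19 and 29, Kat2a 19, Kat7 14, Kat8 12 at its first start, and Kat2b 11 and 6. These sequences carry the CpG sites that the capture protein can bind once they are methylated. Promoters are shown for Kat6b, the member with the highest level in heart, for Kat2a, the member with the lowest, for Kat5, the member with the smallest p on high fibre, and for Crebbp, which was chosen after its values were seen. Capitals mark CpG sites, and each is written 5′ to 3′ on the gene's own strand. Kat6b lies at chr14:21499520-21499819 on the plus strand, Kat2a at chr11:100712418-100712717, Kat5 at chr19:5610045-5610344 and Crebbp at chr16:4213355-4213654, all on the minus strand.
Kat6b: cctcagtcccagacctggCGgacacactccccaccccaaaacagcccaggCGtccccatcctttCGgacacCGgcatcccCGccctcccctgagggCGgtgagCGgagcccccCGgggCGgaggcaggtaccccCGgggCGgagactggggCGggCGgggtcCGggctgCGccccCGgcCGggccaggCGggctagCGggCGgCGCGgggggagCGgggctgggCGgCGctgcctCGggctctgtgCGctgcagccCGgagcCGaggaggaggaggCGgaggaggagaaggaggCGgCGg
Kat2a: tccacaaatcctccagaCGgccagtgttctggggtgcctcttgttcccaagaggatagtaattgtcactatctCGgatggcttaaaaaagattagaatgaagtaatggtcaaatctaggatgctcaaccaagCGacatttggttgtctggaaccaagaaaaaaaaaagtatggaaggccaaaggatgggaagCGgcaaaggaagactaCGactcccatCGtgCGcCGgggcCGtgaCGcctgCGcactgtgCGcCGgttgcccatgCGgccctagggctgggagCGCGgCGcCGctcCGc
Kat5: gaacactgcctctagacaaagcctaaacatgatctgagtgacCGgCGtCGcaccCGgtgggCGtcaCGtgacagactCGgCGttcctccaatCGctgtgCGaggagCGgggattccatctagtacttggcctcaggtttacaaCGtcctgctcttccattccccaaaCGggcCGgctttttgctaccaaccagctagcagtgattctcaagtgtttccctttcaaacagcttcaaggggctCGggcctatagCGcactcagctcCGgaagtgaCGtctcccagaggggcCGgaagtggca
Crebbp: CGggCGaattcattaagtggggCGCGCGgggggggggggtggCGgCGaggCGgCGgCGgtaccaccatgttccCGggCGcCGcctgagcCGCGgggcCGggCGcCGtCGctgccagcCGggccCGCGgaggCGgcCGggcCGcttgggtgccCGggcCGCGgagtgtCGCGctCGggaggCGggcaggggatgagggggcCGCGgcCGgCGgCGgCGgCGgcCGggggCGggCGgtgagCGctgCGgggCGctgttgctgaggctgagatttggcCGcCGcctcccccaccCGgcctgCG
CpG sites are spread along most of the Crebbp and Kat6b stretches, while those of Kat2a crowd near its start site. The deposited windows are wider than these stretches, at 3 kb per the file names, and how they were placed around a start is not given in the sources used here.

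Heart libraries held 4.12 to 8.60 M (mega) counts and spleen libraries 4.36 to 9.87 M, and the 10 genes together had 1286 to 2427 reads per heart library and 878 to 1910 per spleen library. Many reads lay in 1 window, Gm10800, a predicted gene in satellite-like sequence. Its share of counts was 17.3% to 21.3% in high fibre heart, 22.1% to 42.4% in acetate heart and 36.8% to 50% in control heart. In spleen it was 48.2% to 61.2%. The diet groups of heart thus differed in the share of reads left for all other windows. The number of reads outside the 5 largest windows overlapped, at 3.3 to 4.21 M in high fibre heart and 2.9 to 4.4 M in control heart. Acetate heart replicate 1 stood apart, with a median of 26 reads per window and 17.1% of windows without a read. Windows of 12 cardiomyocyte marker genes summed to 122 to 158 CPM in heart and 245 to 362 CPM in spleen, and windows of 7 B cell marker genes to 84.9 to 107 CPM in heart and 43.8 to 62.4 CPM in spleen, with no marker at 0 in any group. Sums do not speak for each gene. On control 6 cardiomyocyte windows were called higher and 6 lower in heart than in spleen. For B cell windows these counts were 6 and 0, for 8 T cell windows 4 and 1. They were 4 and 0 for 5 pan-leukocyte windows and 1 and 2 for 5 erythroid windows. Of all windows 40% were called higher and 32.7% lower. Marker sums, here and below, are of captured DNA scaled over all 23 libraries and show no expression. Normalised read counts are given in CPM, that is per M counts of a TMM-scaled library.

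Levels of the members differed widely within a tissue. Over 11 heart libraries Kat6b had 77.7 ± 5.55 CPM (SD) and Kat2b 57.7 ± 3.97 CPM, and they were first and second in every heart library. A middle group followed, with Kat6a at 33.5 ± 2.32 CPM, Kat7 at 33.1 ± 3.65 CPM, Hat1 at 31.1 ± 2.95 CPM, Ep300 at 27.3 ± 3.65 CPM and Crebbp at 25.7 ± 2.39 CPM. Kat8 had 23.7 ± 5.2 CPM and Kat5 22.7 ± 6.13 CPM, and Kat2a, at 11 ± 2.74 CPM, was last in all 11 libraries. From Kat6a down to Kat5 the means of neighbours in this order lay within 1 SD of each other, except those of Hat1 and Ep300, which were slightly further apart. The median over all heart windows was 9.01 CPM. Over 12 spleen libraries the order again opened with Kat6b at 42.2 ± 2.80 CPM and Kat2b at 35.3 ± 1.91 CPM, but Kat5 came next at 30.4 ± 6.73 CPM and Crebbp was last in every library at 4.12 ± 1.32 CPM. The median over all spleen windows was 2.61 CPM. A window may hold more than 1 start of a gene, so levels of different genes compare captured DNA per window and not per CpG.

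**Figure D1:**
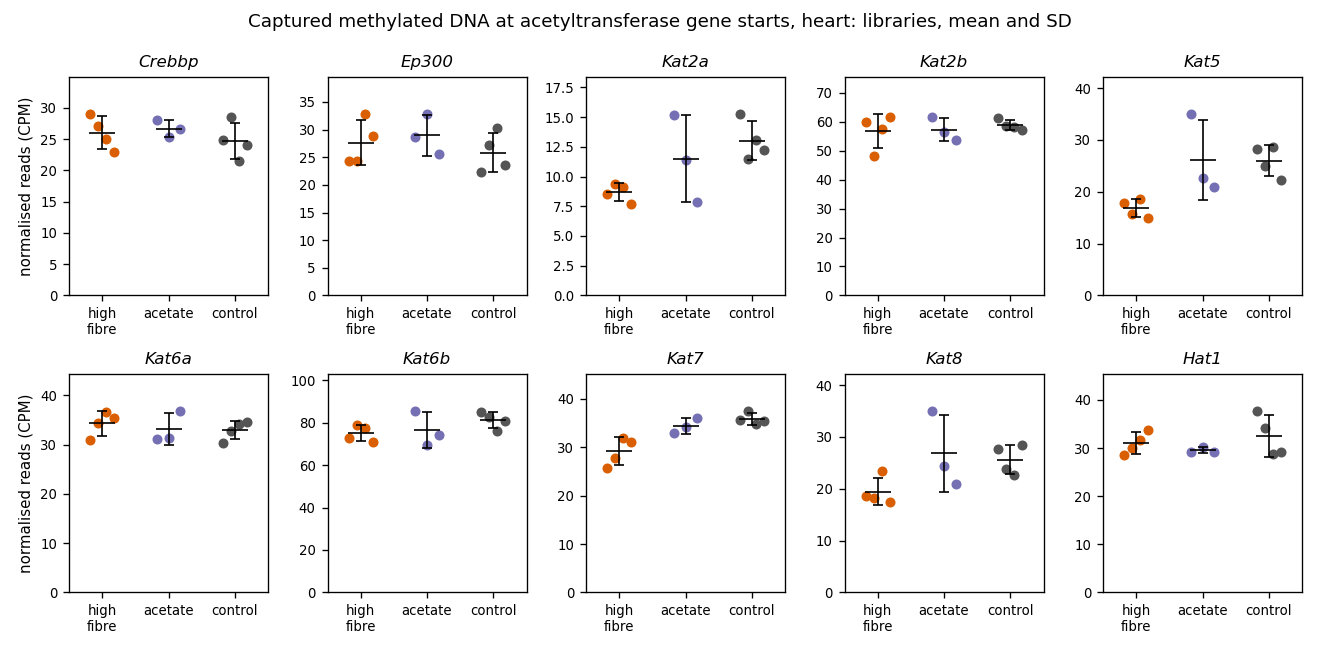
Normalised reads (CPM, vertical axis, from 0) at the start window of each gene in heart, by diet; points are libraries, horizontal lines means and bars SD. The 4 high fibre libraries of Kat5 lie between 15 and 18.7 CPM, below all acetate and control libraries.

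Heart on high fibre against control was the diet comparison in which members changed. Captured DNA fell at Kat5, Kat2a and Kat8 on high fibre, by about 1.54-, 1.49- and 1.31-fold, and none of the 10 genes was called higher at TMM scaling. With library totals as the scale, which put the median of all windows at 0.69, 7 of the 10 were called higher and 0 lower. Most windows did the same, with 24545 of 33562 called higher and 14 lower. Of all 33562 windows tested, edgeR's quasi-likelihood test called 26.2% at a Benjamini-Hochberg adjusted p under 0.05, 12.6% higher and 13.6% lower, so 3 of 10 is close to the share of windows called in general. Without control replicate 1 or high fibre replicate 4, Kat5 was the 1 member called, with 2495 and 2583 windows called, and without acetate replicate 1 there were 4 members and 14335 windows. The median log2 fold change was -0.09 over the 10 genes and 0.02 over all windows tested. Kat5, Kat2a and Kat7 had every high fibre library below every control library, as did 17.2% of all windows.

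Kat5, the acetyltransferase of the TIP60 complex that acts in transcription and in DNA repair, had 17.8, 15.7, 18.7 and 15 CPM in high fibre heart, 35.1, 22.6 and 21.0 CPM in acetate heart, and 28.3, 24.9, 28.6 and 22.3 CPM in control heart. All high fibre libraries lay below all others, while acetate and control libraries overlapped. The log2 fold change of high fibre over control was -0.62 (SE 0.146, edgeR adjusted p = 0.00829), from 16.8 ± 1.71 CPM on high fibre and 26.0 ± 2.99 CPM on control (SD, n = 4 each). The call held without each heart library in turn. When all tested windows were cut into 10 bins of equal size by abundance, 25.2% of windows in the bin of Kat5 were called lower, with a median log2 fold change of -0.20.

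Kat2a, one of the catalytic subunits of SAGA, had 8.54, 9.40, 9.11 and 7.73 CPM in high fibre heart, 15.2, 11.4 and 7.87 CPM in acetate heart, and 15.3, 11.5, 13.1 and 12.2 CPM in control heart. High fibre libraries lay below all control libraries, and the acetate libraries spread over both ranges. The log2 fold change of high fibre over control was -0.57 (SE 0.171, edgeR adjusted p = 0.0203), and the call was lost without control replicate 1 (-0.48, adjusted p = 0.0962) or high fibre replicate 4 (-0.52, adjusted p = 0.0742). In its abundance bin the median was 0.09 and 4.74% of windows were called lower. Hspb9, a small heat shock protein gene that starts 1462 bases away on the opposite strand, was at -0.06 on the log2 scale in the same comparison (SE 0.198, adjusted p = 0.839). The paralog Kat2b had 48.3 to 61.7 CPM in high fibre heart and 57.2 to 61.4 CPM in control heart, and its log2 difference was -0.05 (SE 0.105, adjusted p = 0.745). A pseudogene copy of it, Kat2b-ps, is no member but has a window of its own, with 12.7 ± 0.666 CPM on high fibre and 19.3 ± 2.39 CPM on control (SD, n = 4 each). That window fell by 0.59 on the log2 scale (edgeR adjusted p = 0.00565), and how reads shared by a gene and its copy were assigned is not given in the sources used here.

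Kat8, which acetylates histone H4 within the MSL and NSL complexes, had 18.7, 18.3, 23.4 and 17.5 CPM in high fibre heart, 35.1, 24.4 and 21.0 CPM in acetate heart, and 27.7, 23.9, 22.6 and 28.4 CPM in control heart. The high fibre and control ranges overlapped by 1 library. In the abundance bin of Kat8 the median was -0.20 and 25.2% of windows were called lower. The log2 fold change of -0.39 (SE 0.146) had an edgeR adjusted p of 0.0494, at the edge of the threshold, and the call was lost in 8 of the 11 fits that leave out a library. It held without acetate replicate 1, acetate replicate 3 or high fibre replicate 3, and its largest adjusted p was 0.149, without high fibre replicate 4 (-0.34). The Kat8 call was also lost with RLE scaling (-0.39, adjusted p = 0.0565), DESeq2 (-0.40, adjusted p = 0.0757) and totals outside the 5 largest windows (-0.28, adjusted p = 0.0960), and the value turned to 0.29 with library totals (adjusted p = 0.105). Kat7, the acetyltransferase that works with replication origin proteins, had 25.8, 27.7, 32.0 and 31.2 CPM in high fibre heart, 33.0, 34.1 and 36.1 CPM in acetate heart, and 35.7, 37.6, 34.8 and 35.5 CPM in control heart. Windows in the abundance bin of Kat7 had a median of -0.26, close to its own value, and 34.7% were called lower. The ranges of Kat7 did not overlap between high fibre and control, but its difference of -0.29 (SE 0.110, edgeR adjusted p = 0.0523) missed the threshold. It passed without acetate replicate 1 (adjusted p = 0.0135) or acetate replicate 3 (adjusted p = 0.0497), libraries of neither group, which enter through the shared estimate of spread. Gm11520, a predicted gene starting 170 bases from Kat7 on the opposite strand, had 4 to 14 reads per library in these groups.

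The other members showed no called difference on high fibre in heart. Crebbp had 22.9 to 29.1 CPM on high fibre and 21.5 to 28.5 CPM on control, with a log2 fold change of 0.06 (SE 0.120), and its paralog Ep300 had 24.3 to 32.9 CPM on high fibre and 22.3 to 30.2 CPM on control, with 0.11 (SE 0.133). Hat1 had 28.5 to 33.8 CPM on high fibre and 28.8 to 37.8 CPM on control (-0.07, SE 0.117). Kat6a, a MYST enzyme needed for blood stem cells, had 30.9 to 36.7 CPM on high fibre and 30.4 to 34.5 CPM on control (0.06, SE 0.111). Its paralog Kat6b had 70.7 to 78.8 CPM on high fibre and 76.3 to 85.1 CPM on control (-0.12, SE 0.101).

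**Figure D2:**
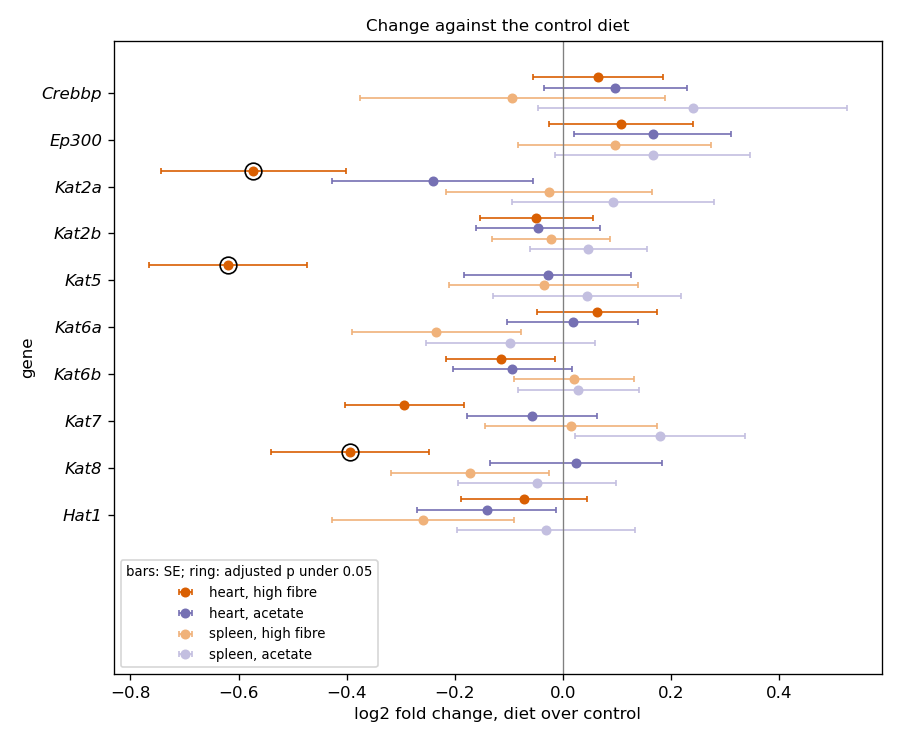
Log2 fold change against the control diet (horizontal axis) for each gene in heart and spleen; points are edgeR estimates, bars SE and rings mark an adjusted p under 0.05. The rings fall on Kat2a, Kat5 and Kat8 on high fibre in heart, at -0.57, -0.62 and -0.39.

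How libraries were scaled moved these values. With library totals in place of TMM, the median over all windows on high fibre was 0.69, and Kat5 stood at 0.07 and Kat2a at 0.11, both uncalled and both below that median. Ep300 stood at 0.80 (edgeR adjusted p = 0.000461) and Crebbp at 0.74 (adjusted p = 0.00104), just above it. With 1 surrogate variable in the model, Kat5 was at -0.25 (edgeR adjusted p = 0.525), Kat2a at -0.20 (adjusted p = 0.772) and Kat8 at -0.09, and none of the 10 genes was called. With cyclic loess Kat5 (-0.44) and Kat2a (-0.64) kept their calls, at an adjusted p of 0.0157 each, and Kat8 (-0.20, adjusted p = 0.253) did not. Shares of the 10 genes' own reads need no scaling across libraries. Kat5 made up 5.17% ± 0.441 of them in high fibre heart, 7.39% ± 1.56 in acetate heart (n = 3) and 7.29% ± 0.803 in control heart (SD, n = 4 for high fibre and control), and its high fibre shares, at most 5.62%, lay below all others, at least 6.32%. Kat2a made up 2.38% to 2.99% on high fibre and 3.19% to 4.16% on control, again without overlap. Kat7 did not overlap either, at 8.15% to 9.61% on high fibre and 9.68% to 10.4% on control. How often windows in general separate on such shares was not counted. In the same libraries the share of Gm10800 differed by diet, as given above, and windows of 5 pan-leukocyte marker genes summed to 98.0 to 116 CPM on high fibre and 122 to 138 CPM on control, with 1 called higher and 3 lower. Windows of 8 T cell marker genes summed to 97.1 to 116 CPM on high fibre and 129 to 148 CPM on control (0 higher, 3 lower), of 7 B cell genes to 84.9 to 92.4 CPM on high fibre and 87.2 to 107 CPM on control (1 higher, 2 lower), of 5 erythroid genes to 34.5 to 41 CPM on high fibre and 39.7 to 44.3 CPM on control (1 higher, 2 lower), and of 12 cardiomyocyte genes to 122 to 135 CPM on high fibre and 137 to 158 CPM on control (1 higher, 2 lower). The part of Gm10800 or of these cell types in the differences was not tested. In bulk tissue a change in cell makeup and a change in captured DNA within cells cannot be told apart.

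**Figure D3:**
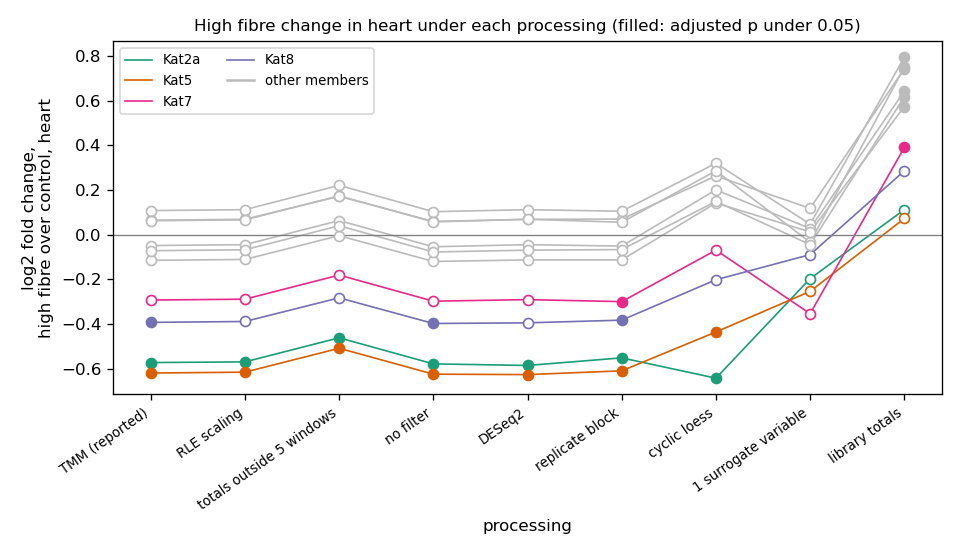
Log2 fold change of high fibre over control in heart (vertical axis) for each gene under the reported TMM scaling and 8 other treatments of the data (horizontal axis); filled points have an adjusted p under 0.05. Kat5 and Kat2a are the lowest pair of lines except with 1 surrogate variable, and all 10 lines are above 0 with library totals.

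Acetate had no called member in heart. Against control the 10 log2 fold changes ran from -0.24 at Kat2a (SE 0.186) to 0.17 at Ep300 (SE 0.146). Kat5, at 26.2 ± 7.74 CPM on acetate (n = 3) and 26.0 ± 2.99 CPM on control (SD, n = 4), had -0.03 (SE 0.155). edgeR called 0 of 33562 windows (percent called 0), with 840 windows and 0 of the 10 genes at an unadjusted p under 0.05, and DESeq2 also called 0 windows. Without acetate replicate 1 edgeR called 694 windows and 0 of the 10 genes. Acetate replicate 1, with the lowest median count of the heart libraries, had the highest of the 3 values at Crebbp, Kat2a, Kat2b, Kat5, Kat6b and Kat8.

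High fibre against acetate in heart used the same high fibre libraries. edgeR called 1.4% of windows, 0.188% higher and 1.21% lower, and 0 of the 10 genes, with Kat5 and Kat8 at an unadjusted p under 0.05. Kat2b-ps, the pseudogene copy that is no member, was called lower (-0.75, SE 0.130, edgeR adjusted p = 0.0488), with Kat2b at -0.003 (SE 0.115). Kat5 (-0.59, SE 0.160, adjusted p = 0.0508) and Kat7 (-0.24, SE 0.120, adjusted p = 0.206) had all high fibre libraries below all acetate libraries, as had 11.1% of windows. The Kat5 difference passed without acetate replicate 2 (-0.68, adjusted p = 0.0297) or acetate replicate 3 (-0.73, adjusted p = 0.0107), and that of Kat8 (-0.42, adjusted p = 0.108) without acetate replicate 3 (-0.58, adjusted p = 0.0285). Without acetate replicate 1 Kat5 was at -0.37 (adjusted p = 0.224) and Kat8 at -0.21 (adjusted p = 0.503). The window count itself moved by more than 1.5 times in 10 of the 11 fits without a library, all but that without control replicate 1, and lay between 0 and 4542. DESeq2 called 1 of the 10 genes, Kat5.

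Spleen showed no called window in any diet comparison. edgeR called 0 of 24871 windows for high fibre against control, acetate against control and high fibre against acetate (percent called 0 in each), with 502, 873 and 824 windows at an unadjusted p under 0.05 and 0 of the 10 genes among them. DESeq2 called 0, 1 and 0 windows and 0 of the 10 genes. Kat5 had 39.8, 28.7, 20.7 and 29.0 CPM in high fibre spleen, 29.9, 24.5, 25.8 and 44.1 CPM in acetate spleen, and 37.6, 26.7, 29.3 and 29.0 CPM in control spleen, and the 3 ranges overlapped. Kat2a averaged 10.1 ± 2.49 CPM on high fibre, 10.9 ± 2.45 CPM on acetate and 10.5 ± 2.40 CPM on control (SD, n = 4 each). On high fibre the members ran from -0.26 at Hat1 (SE 0.168) to 0.10 at Ep300 (SE 0.179) against control, and on acetate from -0.10 at Kat6a (SE 0.156) to 0.24 at Crebbp (SE 0.286). For high fibre against acetate all 10 were below 0, from -0.33 at Crebbp (SE 0.292) to -0.008 at Kat6b (SE 0.113). Their median was -0.12, against -0.0035 over all spleen windows tested. Crebbp rested on 15 to 50 reads per spleen library, and its values of 1.78 to 6.56 CPM on high fibre spread more than those of any other member relative to the mean.

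The high fibre effect was not shown to differ between heart and spleen for any member. The difference of the 2 effects, heart minus spleen, was -0.59 for Kat5 (SE 0.276, unadjusted p = 0.0407, edgeR adjusted p = 0.290) and -0.55 for Kat2a (SE 0.281, adjusted p = 0.321), with 0.0559% of windows called, 0.0177% higher and 0.0383% lower, 19 in all. That number lay between 0 and 603 in fits without a library, with 0 of the 10 genes called in each and in DESeq2, and the 603 came without spleen control replicate 1. For Kat8 it was -0.22 (SE 0.217) and for Kat7 -0.31 (SE 0.199). The acetate effect had a difference of -0.31 for Kat2a (SE 0.296) and -0.04 for Kat5 (SE 0.286), with 0 of 33982 windows and 0 of the 10 genes called, 1554 windows and 0 of the 10 genes at an unadjusted p under 0.05, and 0 windows called by DESeq2.

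**Figure D4:**
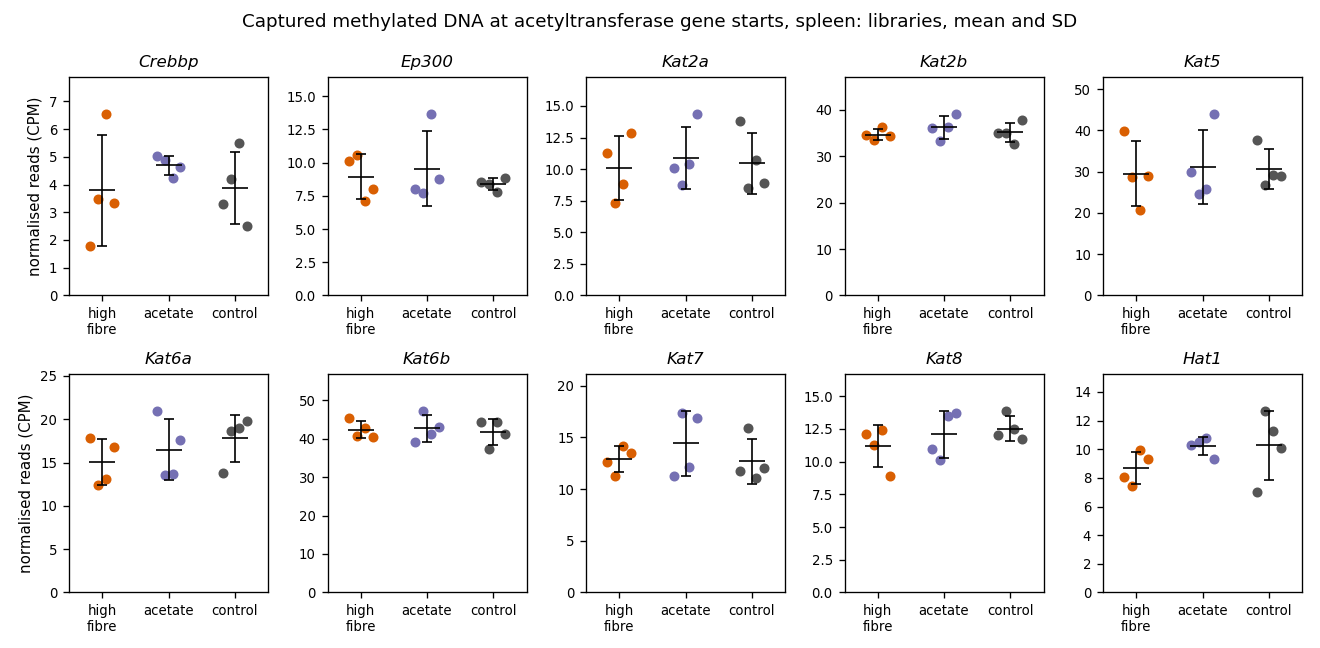
Normalised reads (CPM, vertical axis, from 0) at the start window of each gene in spleen, by diet; points are libraries, horizontal lines means and bars SD. The 3 diets overlap for every gene, and Crebbp stays at or below 6.56 CPM in all 12 libraries.

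Between the tissues most members differed in every diet. Heart had more captured DNA than spleen at Crebbp, Hat1 and Ep300, and less at Kat5, Kat2a and Kat2b, on high fibre, acetate and control alike, though Kat2a and Kat2b turned with the scaling, as given with their values. edgeR called 8 of the 10 genes on high fibre, 3 higher and 5 lower in heart, 6 on acetate, 3 in each direction, and 7 on control, 4 higher and 3 lower. With library totals 8 were higher and 1 lower on high fibre, and likewise on control. Most windows also turned higher with that scaling, on control 23359 of 33982, with 2075 lower. Of all 33982 windows 80.7% were called on high fibre, 45.1% higher and 35.6% lower, 63% on acetate, 34% higher and 29% lower, and 72.7% on control, 40% higher and 32.7% lower, so such counts were usual. The median over all windows was 0.24 on high fibre, 0.20 on acetate and 0.19 on control, but windows as abundant as the members had lower medians. On high fibre these were -0.33 in the abundance bin of Crebbp and Kat2a and -0.70 in that of Ep300, Kat7, Kat8 and Hat1. They were -0.975 in that of Kat5 and Kat6a and -1.11 in that of Kat2b and Kat6b, where 87% of windows were called lower. On control the medians of these bins were -0.22, -0.47, -0.67 and -0.78. Kat2b and Kat6b, given below, lay above the median of their bin. CPM in this comparison are scaled over all 23 libraries together and differ from those within a tissue.

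Crebbp, the co-activator CBP, had 19.2, 17.9, 16.5 and 15.1 CPM in heart and 2.77, 5.02, 9.17 and 5.01 CPM in spleen on high fibre, 18.4, 16.7 and 17.6 CPM in heart and 7.30, 6.55, 5.93 and 7.24 CPM in spleen on acetate, and 16.4, 18.9, 14.3 and 15.9 CPM in heart and 5.12, 6.05, 8.14 and 3.65 CPM in spleen on control. Every heart library lay above every spleen library. Within a diet the same held for 41.1% of windows on high fibre, 23.8% on acetate and 36.2% on control. The log2 fold changes of heart over spleen were 1.63 (SE 0.199), 1.32 (SE 0.205) and 1.44 (SE 0.191), with edgeR adjusted p of 5.48e-09, 2.06e-06 and 6.53e-08. All 8 other treatments of the data kept the direction and the call in each diet. Crebbp also took 6.18% to 9.18% of the 10 genes' reads in every heart library and 0.92% to 3.82% in every spleen library. Of windows in its abundance bin, 20.8% were called higher in heart on the control diet and 42.6% lower.

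Its paralog Ep300 differed by less, with 18.2 ± 2.72 CPM in heart and 13.2 ± 2.77 CPM in spleen on high fibre and 17.1 ± 2.36 CPM in heart and 12.5 ± 0.772 CPM in spleen on control (SD, n = 4 each). The log2 fold changes were 0.45 on high fibre, 0.48 on acetate and 0.45 on control, the largest edgeR adjusted p being 0.0178. The call was lost without control heart replicate 3 on control (0.37, adjusted p = 0.0519), without high fibre heart replicate 3 (0.36, adjusted p = 0.0532) or spleen replicate 3 (0.35, adjusted p = 0.0535) on high fibre, and without acetate heart replicate 2 (0.37, adjusted p = 0.113), acetate spleen replicate 1 (0.41, adjusted p = 0.0654) or acetate spleen replicate 2 (0.38, adjusted p = 0.0637) on acetate. Hat1 had 20.4 ± 1.5 CPM in heart and 12.8 ± 1.49 CPM in spleen on high fibre, and 21.5 ± 2.86 CPM in heart and 15.2 ± 3.19 CPM in spleen on control (SD, n = 4 each). Its log2 fold changes were 0.67 on high fibre, 0.40 on acetate and 0.48 on control (edgeR adjusted p of 6.07e-05, 0.0210 and 0.00192), and on acetate the call was lost without heart replicate 2 (0.38, adjusted p = 0.0637). Ep300 and Hat1 were above 0 under all 8 other treatments in each diet, but not all kept the call. With 1 surrogate variable it was lost on high fibre at Ep300 (0.62, adjusted p = 0.0983) and Hat1 (0.58, adjusted p = 0.0801) and on acetate at Hat1 (0.36, adjusted p = 0.0952), and with the replicate block on acetate at Hat1 (0.39, adjusted p = 0.0542).

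Kat5 differed the other way and by more than any other member on high fibre. It had 11.7, 10.4, 12.3 and 9.92 CPM in heart and 62.1, 41.3, 29.0 and 43.3 CPM in spleen on high fibre, 23.1, 14.9 and 13.8 CPM in heart and 43.4, 33.0, 36.1 and 68.6 CPM in spleen on acetate, and 18.7, 16.5, 19.0 and 14.8 CPM in heart and 58.4, 38.4, 43.5 and 42.1 CPM in spleen on control. Every heart library lay below every spleen library. Within a diet the same held for 32.6% of windows on high fibre, 23.9% on acetate and 30.8% on control. The log2 fold changes were -1.97 (SE 0.202), -1.42 (SE 0.219) and -1.38 (SE 0.196), with edgeR adjusted p of 1.55e-10, 1.85e-06 and 1.97e-07. The direction and the call held under all 8 other treatments, though with library totals the size shrank to -0.40 on high fibre, -0.51 on acetate and -0.48 on control. Kat5 took 4.63% to 9.18% of the 10 genes' reads in heart libraries and 12.1% to 20.8% in spleen libraries. Being lower in heart was usual for windows in its abundance bin. Of these, 78% were called lower on high fibre, with a median of -0.975, and 71.3% on control, with a median of -0.67.

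Kat2a had 5.73 ± 0.483 CPM in heart and 14.9 ± 4.16 CPM in spleen on high fibre, and 8.64 ± 1.1 CPM in heart and 15.6 ± 4.19 CPM in spleen on control (SD, n = 4 each). Heart lay below spleen without overlap in each diet, as did the shares of windows given for Kat5. The log2 fold changes of Kat2a were -1.35 on high fibre, -1.11 on acetate and -0.81 on control (edgeR adjusted p of 4.08e-07, 8.07e-05 and 0.000509). With library totals they were 0.19, -0.20 and 0.08, so the direction on high fibre and control turned with that scaling, and the call on acetate was lost (adjusted p = 0.432). The Kat2a call was also lost with 1 surrogate variable on high fibre (-0.18, adjusted p = 0.713) and control (-0.10, adjusted p = 0.752), and with totals outside the 5 largest windows on control (-0.37, adjusted p = 0.0529). Kat2b, at -0.44, -0.47 and -0.41 (edgeR adjusted p of 0.00105, 0.00202 and 0.00228), turned with cyclic loess (0.58, 0.20 and 0.30) and with library totals (1.15, 0.46 and 0.49). With 1 surrogate variable Kat2b was uncalled on high fibre (-0.16, adjusted p = 0.556) and control (-0.24, adjusted p = 0.143). Kat6b (-0.33, -0.28 and -0.20) and Kat8 (-0.35, -0.02 and -0.13) were called lower in heart on high fibre alone and were above 0 in every diet with both of those scalings. RLE scaling lost both calls on high fibre (-0.16, adjusted p = 0.175 at Kat6b and -0.18, adjusted p = 0.277 at Kat8), as did DESeq2. They were also lost without single libraries, that of Kat6b without spleen replicate 1 (-0.27, adjusted p = 0.0504), and that of Kat8 without heart replicate 1, 2 or 4, spleen replicate 1, 2 or 3, or control heart replicate 1, the largest adjusted p being 0.155 without spleen replicate 1 (-0.27). On acetate Kat6b passed without heart acetate replicate 1 (-0.37, adjusted p = 0.0164), and also without spleen acetate replicate 1, spleen control replicate 1 or 2, or spleen high fibre replicate 1. Kat7 was called higher on control alone (0.34, SE 0.139, edgeR adjusted p = 0.0300) and lost the call without heart control replicate 2 (0.31) or spleen control replicate 1, 3 or 4 (0.32, 0.27 and 0.30), and with 1 surrogate variable (0.25, adjusted p = 0.254). Kat6a was called in no diet, at 0.02, -0.13 and -0.27, and was called lower on control without spleen control replicate 1 (-0.35, adjusted p = 0.0421). The window of Kat2b-ps, no member, was lower in heart at TMM scaling, at -1.86, -1.05 and -1.23 (edgeR adjusted p of 2.81e-13, 4.65e-07 and 1.48e-09). In its abundance bin 70.3%, 53.1% and 60% of windows were called lower.

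**Figure D5:**
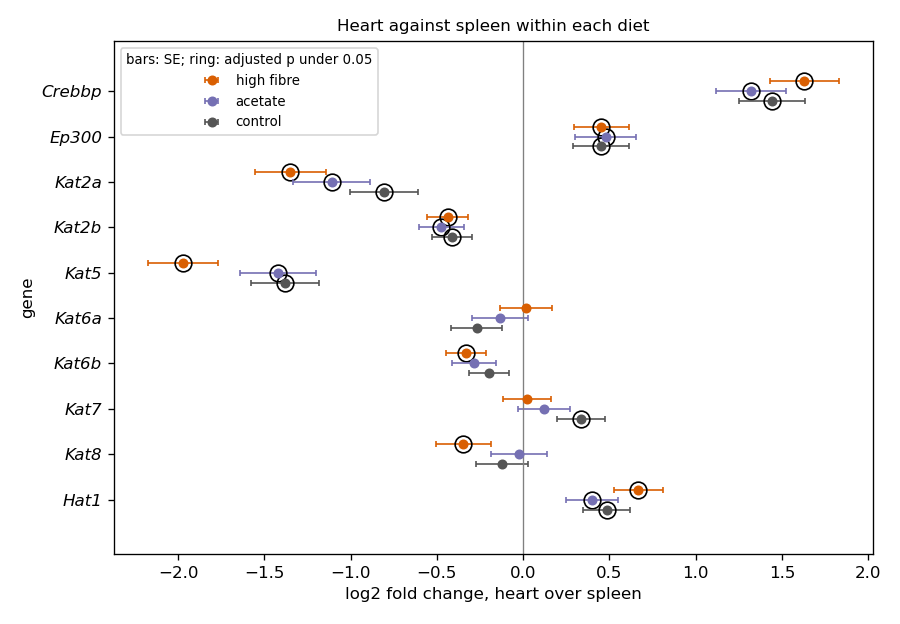
Log2 fold change of heart over spleen (horizontal axis) for each gene within each diet; points are edgeR estimates, bars SE and rings mark an adjusted p under 0.05. Crebbp lies between 1.32 and 1.63 and Kat5 between -1.97 and -1.38, and at this scaling Kat6a is the 1 gene whose diets fall on both sides of 0.

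Genes whose products work with these enzymes moved in both directions on high fibre in heart. Of 101 partner genes found, 86 were tested, and edgeR called 11 higher and 12 lower, 26.7% against 26.2% of all windows. Among 20 SAGA and ATAC subunits tested, 3 were higher, the TBP regulator Dr1 (0.77), Supt3 (0.58) and Mbip (0.51), and 4 lower, with the deubiquitinase subunit Atxn7l3 at -0.62, the scaffold Trrap at -0.55 and the adaptor Tada3 at -0.51. Among 15 TIP60 subunits, Ing3 (0.64) and Epc2 (0.63) were higher and the helicase Ruvbl2 (-0.69), Trrap and Meaf6 (-0.53) lower. Of 8 partners of Kat6a, Kat6b and Kat7, 0 were higher and 3 lower, namely Meaf6, Brpf3 (-0.47) and Brd1 (-0.32), with a median of -0.33 over the 8. The 10 MSL and NSL subunits tested had 1 call, Kansl1 (0.39), and the 4 chaperones around Hat1 had 1, the H3-H4 chaperone Asf1a (0.58).

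Further acetyltransferases and readers of acetylated lysine were mixed as well. Of 14 other acetyltransferases tested on high fibre in heart, Atf2 (0.70) and Cdyl (0.40) were called higher and the nuclear receptor co-activator Ncoa3 (-0.33) and the tubulin acetyltransferase Atat1 (-0.39) lower. Of 19 readers, Phip (0.75) and Brd7 (0.48) were higher and Mllt1 (-0.50) and the testis bromodomain gene Brdt (-0.37) lower. Against acetate, 1 of the 86 partner genes was called, Epc2 (0.56, edgeR adjusted p = 0.0496). For acetate against control in heart and for every diet comparison in spleen 0 partner genes were called. Between heart and spleen on control 33 were higher and 33 lower in heart, 76.7% against 72.7% of all windows, among them Supt3 (2.60), Asf1a (2.11), Baz2a (2.76), Brd1 (-1.35) and Yeats4 (-1.53).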

How the data were processed

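The deposited values are raw read counts per gene-start window, 1 table for heart and 1 for spleen, which the authors did not normalise or pool, per the file headers. Per the submitters' processing notes, the tools were featureCounts 1.5.1, edgeR 3.16.5, BWA 0.7.10 and bcl2fastq 2.19.1.403, and the build was GRCm38. How duplicates, strand and reads in several windows were treated is not given in the sources used here.

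Groups follow the tissue and diet labels of 23 libraries, with 0 columns unmapped. Counts were tested with edgeR 4.0.16 in R 4.3.3: quasi-likelihood fits, TMM factors, filterByExpr at a minimum count of 10, a prior count of 2 and Benjamini-Hochberg adjustment over all tested windows at 5%. The spread was estimated once per tissue over its 3 diets, and comparisons between tissues came from 1 fit over all libraries. SE is the log2 fold change divided by the square root of F. No 2 libraries were identical.

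On simulated counts for heart, high fibre against control, changes of 2-fold were recovered in 80% and changes of 1.5-fold in 32% of cases, over 33409 windows. For spleen, high fibre against control, these were 65% and 27% over 24743 windows, and for heart against spleen on control 72% and 16% over 33060. Each simulation changed 100 windows per fold and drew all libraries from the same average profile. It therefore lacked the group differences in the share of Gm10800 and the many changed windows of the real data. The rates do not give the recovery in the real comparisons.

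The members and lists were chosen with earlier results of these data known. All 10 members are named for high fibre against control in heart and for heart against spleen, and some of them in the other comparisons. Copies of members by symbol and genes starting within 3000 bases are given for high fibre against control in heart. The copy Kat2b-ps is also given for high fibre against acetate in heart and for heart against spleen. Of each partner list up to 3 called genes per direction with the smallest p are named for the diet comparisons. Between heart and spleen only a few of the called partner genes are named, as examples, and on control alone. The partner lists were Kat2a and Kat2b (23 genes found), Kat5 (17), Kat6a, Kat6b and Kat7 (9), Kat8 (11), Hat1 (5), other acetyltransferases (18) and readers (22). Marker genes were those of cardiomyocytes, B cells, T cells, leukocytes and erythroid cells. Alternatives were RLE scaling, library totals, cyclic loess (limma 3.58.1), no filter, DESeq2 1.42.0, 1 surrogate variable (sva 3.50.0), a replicate block and leaving out each library. Totals outside the 5 largest windows were added after seeing the data.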

Additional observations from a re-analysis of the deposited data

How the results depend on the processing

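Of 2720 member values under alternatives, 206 changed sign, in 167 cases where neither value was called and in the other 39 from or into a call. A further 53 kept their sign and lost a call, and 29 kept it and gained one. Values given below for high fibre, acetate and control are in that order, for heart against spleen unless said otherwise.

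With library totals, heart on high fibre against control turned to 0.11 at Kat2a, 0.64 at Kat2b, 0.0725 at Kat5, 0.57 at Kat6b, 0.39 at Kat7, 0.29 at Kat8 and 0.62 at Hat1, while the median over all windows was 0.69. Between tissues library totals gave 0.19 (high fibre) and 0.0776 (control) at Kat2a, 1.15, 0.46 and 0.49 at Kat2b, 0.84 (acetate) and 0.62 (control) at Kat6a, 1.26, 0.64 and 0.72 at Kat6b and 1.22, 0.88 and 0.76 at Kat8, and 0.66 at Kat2b for heart minus spleen in the high fibre effect. Cyclic loess gave 0.58, 0.20 and 0.30 at Kat2b, 0.40 (acetate) at Kat6a, 0.76, 0.42 and 0.56 at Kat6b and 0.29, 0.38 and 0.32 at Kat8. Totals outside the 5 largest windows gave 0.12 (high fibre) and 0.0327 (control) at Kat2b, 0.22 and 0.25 at Kat6b for the same diets, and 0.21, 0.37 and 0.31 at Kat8. With 1 surrogate variable Kat8 was at 0.26 on high fibre.

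Counts of calls moved as follows. In heart, high fibre against control called 24559 windows (24545 higher, 14 lower) and 7 members, all higher, with library totals, 5669 windows with cyclic loess, and 109 windows and 0 members with 1 surrogate variable, and totals outside the 5 largest windows turned the split of 4226 higher and 4562 lower to 5588 and 3126. High fibre against acetate called 0 windows with RLE, 1855 with library totals, 154 with totals outside the 5 largest windows, 20 with 1 surrogate variable, 1256 with no filter and 2516 with DESeq2, the last 2 with 1 member each. Acetate against control called 17 with 1 surrogate variable. In spleen, acetate against control called 1 window with cyclic loess, 2 with no filter, 1 with DESeq2, 21 with 1 surrogate variable and 1 with totals outside the 5 largest windows, high fibre against acetate 1 with no filter and 7 with 1 surrogate variable, and high fibre against control 1 with 1 surrogate variable. Heart against spleen called 17778 windows on high fibre with cyclic loess, and with 1 surrogate variable 7866 windows and 2 members on high fibre, 13183 windows on acetate and 14133 windows and 4 members on control. Of calls on control 55.0% were higher in heart, against 91.8% with library totals and 73.6% with totals outside the 5 largest windows, and on high fibre 55.9%, against 97.0% and 72.5%. On acetate these were 54.0%, 94.6% and 73.7%, and 43.9% with 1 surrogate variable, which gave 44.6% on high fibre. The high fibre effect in heart minus spleen called 6363 windows and 3 members with library totals, 107 with cyclic loess, 110 with DESeq2, 9 with 1 surrogate variable and 72 with totals outside the 5 largest windows. The cause of these shifts was not tested.

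Leaving out each library in turn gave 2495 to 14335 windows and 1 to 4 members for heart high fibre against control, 0 to 694 and 0 to 0 for acetate against control, and 0 to 4542 and 0 to 2 for high fibre against acetate. In spleen it gave 0 to 0 windows for high fibre against control, 0 to 2 for acetate against control and 0 to 3 for high fibre against acetate. Heart against spleen gave 25965 to 27852 windows and 6 to 8 members on high fibre, 17417 to 23323 and 4 to 7 on acetate, and 23035 to 25355 and 6 to 7 on control, and the high fibre effect in heart minus spleen gave 0 to 603 windows.

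Replicate numbers were not taken as pairs. Deviations of same-numbered libraries correlated at -0.09 to 0.43 across diets in heart (4 of 10 pairs over 0.1), -0.15 to 0.55 in spleen (5 of 12) and -0.01 to 0.29 between tissues (5 of 11). With the replicate block, heart high fibre against control called 4 members and 10498 windows, Kat7 being added (-0.30, edgeR adjusted p = 0.0397). Between tissues on acetate the block left 5 members called, Hat1 being lost (0.39, adjusted p = 0.0542). High fibre against acetate called 2290 windows and 1 member, Kat5 (-0.53), acetate against control 1 window in heart and 1 in spleen, and the high fibre effect in heart minus spleen 980 windows. Spleen windows held 13 to 29 reads at the median, which limits what can be seen there.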

Other observations

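Change on high fibre in heart was set beside the number of CpG sites in the RefSeq promoter, over the genes with 1 window. Genes with 0 to 4 CpG sites in 300 bases had a median log2 fold change of high fibre over control of 0.25, with 22.8% of windows called higher and 8.10% lower. Genes with 5 to 14, among them Kat2b, Kat7 and Kat8 at their first starts, had a median of -0.12, with 6.78% higher and 21.1% lower. Genes with 15 to 24, among them Kat2a and Kat5 at their first starts, had a median of -0.10, with 7.01% higher and 22% lower. Genes with 25 to 60, among them Crebbp, Ep300, Kat6b and Hat1, had a median of -0.05, with 10% higher and 16.8% lower. Above 4 sites the median did not fall further with the number of sites. The classes also differed in abundance, with a heart median of 7.96 CPM at 0 to 4 sites. From 5 to 14 sites upward it was 15.7, 14.8 and 14.8 CPM. The part of abundance in these differences was not tested. Genes are not independent replicates, and these are descriptions with no test.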
